A study of Mus musculus with 8 samples.

Results

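Claudins are the membrane proteins that set which ions and how much water can pass between neighbouring epithelial or endothelial cells. The 9 claudin genes described here are Cldn1, Cldn2, Cldn3, Cldn4, Cldn5, Cldn7, Cldn8, Cldn10 and Cldn14, chosen by symbol as claudins known from the nephron and glomerulus, out of 32 claudin genes and 32285 genes in the files. They held 172183 of the 195617 claudin UMIs (unique molecular identifiers, each standing for 1 captured RNA molecule). The RNA came from single nuclei of frozen kidneys of male mice on the C57BL/6J background, kept in 12 h of light and 12 h of dark. Control mice (Ctrl) were Bmal1lox/lox. Their littermates with a disrupted clock in the renal tubule (cKOt) were Bmal1lox/lox/Pax8-rtTA/LC-1, in which Pax8-rtTA, active in the tubule, lets doxycycline switch on Cre from LC-1. Mice of both genotypes carried the floxed alleles, and doxycycline (2 mg/ml) with sucrose (20 mg/ml) was in their drinking water for 2 weeks from 8 weeks of age. Kidneys were taken at Zeitgeber time (ZT) 4, in the light and resting phase, or at ZT16, in the dark and active phase, with 2 mice in each of the 4 groups and 1 library per mouse.

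In a tight junction, claudins of adjacent cells meet and either seal the gap or line a pore selective for cations, anions or water. Nephron segments differ in the claudins they use: claudin-2 forms a cation and water pore of the leaky proximal tubule, claudin-10 occurs as isoforms with different first exons that favour anions (10a) or cations (10b), claudin-16 and claudin-19 pass calcium and magnesium in the thick ascending limb, and the claudins of the collecting duct hold a tighter seal. Claudin-5 is best known as the claudin of blood vessel endothelium.

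Cldn10 (chr14:119025320-119112901, + strand, GRCm39) has 7 annotated transcripts, and all 7 share the start of their last exon. The counts come from the 3′ end, so the isoforms were counted as 1 gene. The 250 bases before each of its annotated starts are shown because those starts separate the isoforms that the counts join (RefSeq, GRCm38.p6, + strand, CG dinucleotides in capitals).
Cldn10 upstream start, chr14:118787621-118787870: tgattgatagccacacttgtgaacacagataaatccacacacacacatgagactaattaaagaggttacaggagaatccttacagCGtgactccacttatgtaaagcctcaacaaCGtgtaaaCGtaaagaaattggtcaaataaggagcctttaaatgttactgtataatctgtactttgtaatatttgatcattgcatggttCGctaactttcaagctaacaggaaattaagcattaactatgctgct
Cldn10 downstream start, chr14:118854700-118854949: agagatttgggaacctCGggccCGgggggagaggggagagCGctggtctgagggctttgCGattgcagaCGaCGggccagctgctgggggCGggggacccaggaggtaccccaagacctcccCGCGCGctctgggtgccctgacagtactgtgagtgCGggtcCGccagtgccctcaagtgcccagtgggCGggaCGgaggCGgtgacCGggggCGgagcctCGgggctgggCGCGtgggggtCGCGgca
The windows lie 67079 bases apart and differ in composition, with a GC content of 36% and 4 CG dinucleotides upstream against 72.4% and 22 downstream, where the median GC content over 32851 mouse promoters was 52.4%. The motif CACGTG, the E-box read by CLOCK and BMAL1, was searched on both strands. It was in 0 of the 12 windows that the table held for 8 members (Cldn8 not among them) and in 6.02% of all promoters. The motif TATAAA, also searched on both strands, was in the Cldn2 window and in 12.4% of all promoters. A missing motif says only that these letters are not in these 250 bases.

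The 8 libraries held 82784 barcodes, of which 81391 passed as nuclei, 8758 to 10975 per library, with 36548873 to 54500820 UMIs each. Arntl, the gene that encodes BMAL1, was at 33.1 and 39.3 UMIs in each 1000000 protein-coding UMIs (CPM) in the Ctrl ZT4 libraries, 157 and 161 at Ctrl ZT16 and 203 to 295 in the 4 cKOt libraries. Its count covers the whole gene, deleted exons and others alike, and so checks no label. Dbp, a direct clock output, was at 24.8 and 32.9 CPM at Ctrl ZT4 and between 2.03 and 6.82 in all other libraries. Clustering without any claudin gave 71 clusters, of which 51 (91.2% of nuclei) took a name from marker genes, counting cluster 16, which is called by its number. In 5 libraries, proximal nuclei formed clusters that came almost wholly from 1 library. The library cKOt ZT4 replicate 2 gave 96.7%, 99.0% and 96.6% of the nuclei of clusters 25, 26 and 54, and these held 95.6% of its proximal nuclei. Ctrl ZT16 replicate 1 gave 93.9% and 99.0% of clusters 19 and 33, Ctrl ZT16 replicate 2 98.7% of cluster 20, Ctrl ZT4 replicate 1 97.2% of cluster 31 and Ctrl ZT4 replicate 2 99.3% of cluster 34. The cKOt ZT4 libraries also held 25 and 41 adipocyte nuclei, where the others held 0 to 5. No cluster was named glomerular endothelium.

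Levels are the mean ± SD of the CPM over the 8 libraries, within a segment. The libraries are of 4 groups, so the SD and the ranges also hold differences between groups. Overlap between segments was read from these ranges and not within each library. They rank segments for 1 gene and do not rank the genes. Free RNA can give UMIs in nuclei that do not express a gene, and its amount was not measured. Levels in myeloid (Myel) nuclei, which are not known for tight junctions, are given beside the others as the background, with those in T or natural killer (TC/NK) nuclei for Cldn10 and Cldn14. Myel is a comparison and not a floor, since some segments had lower Cldn10. Segments came from clusters of the same nuclei, so differences between segments are descriptions without a test.

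**Figure D1:**
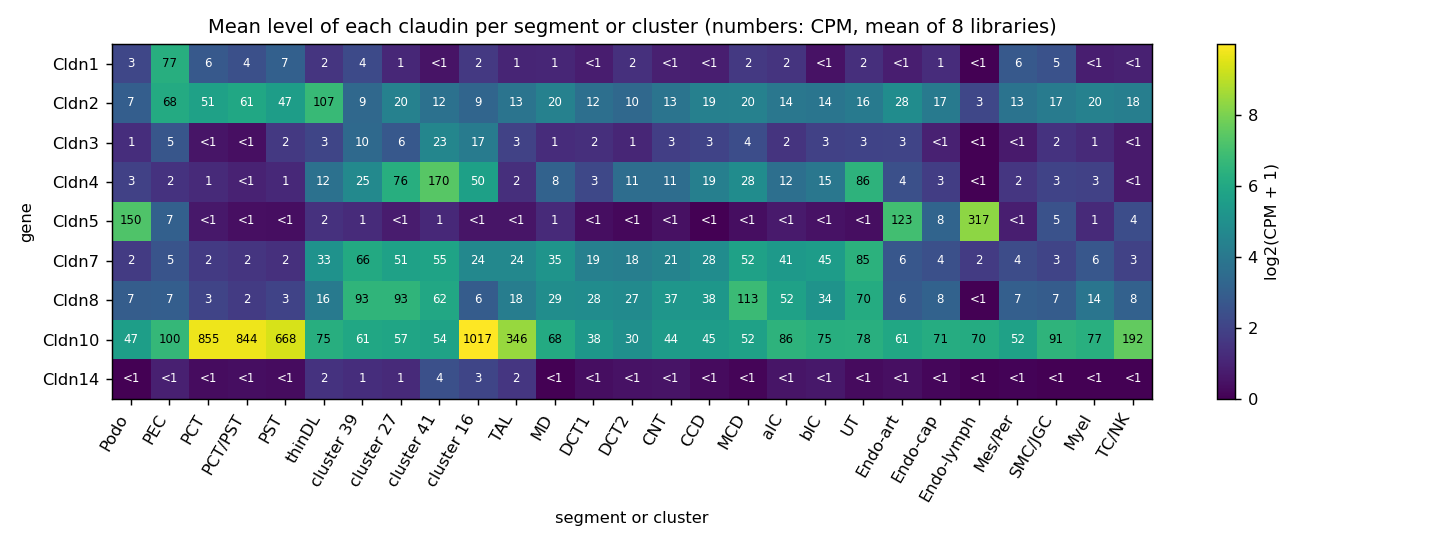
Heat map of the mean CPM of the 9 claudins (rows) in 27 segments or clusters (columns, ordered from glomerulus to collecting duct, then vessels, stroma and immune cells), with colour as log2(CPM + 1) and the number in each cell the mean over 8 libraries. Cldn5 is at 150 CPM in podocytes, Cldn1 at 76.6 in parietal epithelial nuclei, Cldn10 at 1017 in cluster 16 and Cldn14 nowhere above 4.35.

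In the glomerulus, podocytes (Podo, the filtration cells) had Cldn5 and parietal epithelial cells (PEC, the lining of Bowman's capsule) had the highest Cldn1. Their clusters of 509 and 378 nuclei were named from raised markers, 7 of 7 for podocytes and 5 of 5 for PEC. Cldn5 (chr16:18595597-18597012, + strand, 1 exon) was at 150 ± 42.0 CPM in Podo, from 81.1 to 205 in the 8 libraries. Its level in PEC was 7.29 ± 8.64 CPM and in Myel 1.26 ± 3.55, so podocytes lay above the background in every library. Cldn1 (chr16:26175392-26190596, − strand), a sealing claudin of many epithelia, was at 76.6 ± 27.2 CPM in PEC, with 40.7 in the lowest and 120 in the highest library. The next segment, the proximal straight tubule (PST), was at 7.46 ± 6.69 CPM, and even its highest library (21.9) lay below the lowest PEC library. PEC nuclei were few and held 7.40% of all 1311 Cldn1 UMIs, so most Cldn1 molecules were counted elsewhere at low level. Cldn2 (chrX:138701480-138712135, + strand) was at 68.4 ± 25.2 CPM in PEC, between 18.1 and 93.7, and its lowest library was not above the highest Myel library (25.9).

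In the proximal tubule, Cldn2 and Cldn10 lay above their levels in Myel nuclei. Nuclei were named proximal convoluted tubule (PCT), PST, or PCT/PST where these were the 2 best lists and their mean z scores (standardised levels of the markers among clusters) lay within 1 of each other. In PCT/PST clusters the gap ran up to that of cluster 21, with 1.33 for PCT and 0.51 for PST. Cldn2 was at 51.0 ± 5.53 CPM in PCT, 61.3 ± 8.91 in PCT/PST and 46.8 ± 5.02 in PST, and the library ranges overlapped among all 3. Of the 10758 Cldn2 UMIs, 24.1% were in PCT, 34.6% in PCT/PST and 10.3% in PST. Myel nuclei, at 20.0 ± 4.10 CPM, gave the background, and the lowest proximal library (36.4, in PST) lay above the highest Myel library (25.9). Cldn10 was at 855 ± 229 CPM in PCT, 844 ± 167 in PCT/PST and 668 ± 113 in PST. It was the most detected member, with 146731 UMIs and a UMI in 45.2% of all nuclei, and 29.0% of its molecules were in PCT, 35.2% in PCT/PST and 10.6% in PST. The spread of Cldn10 between libraries in PCT (471 to 1093 CPM) was wider than that of Cldn2 (40.1 to 57.4).

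Thin descending limb nuclei (thinDL) had the highest Cldn2, and cluster 16 had the highest Cldn10. In thinDL, Cldn2 was at 107 ± 43.5 CPM, from 67.1 to 205, and overlapped PEC and PCT/PST. Cluster 16 (1653 nuclei) had the thin ascending limb marker list as its best match, but its leading genes included Psca of the urothelial list, and it is called by its number. There Cldn10 was at 1017 ± 179 CPM, from 789 to 1385, a range that overlapped PCT. Cluster 16 also held Cldn4 at 49.7 ± 10.8 CPM, Cldn3 at 17.1 ± 15.4 and, of the other claudins, Cldn19 at 174 ± 71.2. In cluster 16, Cldn3 (chr5:135015068-135016326, + strand, 1 exon) ranged from 3.34 to 51.8 CPM, and the highest value came from cKOt ZT16 replicate 1, with 12 UMIs in 60 nuclei. Clusters 27, 39 and 41, with only 2 or 3 raised markers of a thin limb list, stay unnamed. Their means of Cldn4, Cldn7 and Cldn8 were all above the Myel means. Cluster 41, led by Ism1, Sorcs3 and Plpp4, had the highest Cldn4 (chr5:134973973-134975788, − strand, 1 exon) at 170 ± 42.7 CPM, from 127 to 265, and the highest Cldn3 at 22.8 ± 9.66.

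In the thick ascending limb (TAL, 9697 nuclei), Cldn10 was at 346 ± 37.4 CPM and was unevenly spread over the 4 TAL clusters. It was at 443 ± 25.1 CPM in cluster 6, 411 ± 60.9 in cluster 8, 408 ± 36.8 in cluster 12 and 63.9 ± 17.0 in cluster 13. Every library of cluster 13 (38.3 to 93.6) lay below every library of the others, of which the lowest was 311. Cluster 13 overlapped Myel (77.5 ± 17.5), whose nuclei were shallower, while distal convoluted tubule nuclei had lower means than Myel. How much of the Cldn10 in cluster 13 is background was not tested. Cldn16, a claudin of calcium and magnesium uptake, ran the other way, at 213 ± 27.2 CPM in cluster 13 and 6.29 ± 1.53, 51.5 ± 11 and 55.6 ± 19.6 in clusters 6, 8 and 12. Cldn19, the partner of claudin-16, was at 101 ± 28.4 CPM in cluster 13 and between 66.9 and 80.6 on average in the others, with overlapping libraries. Cluster 13 held 16.7% to 24.4% of TAL nuclei per library, and its leading genes included Casr, the calcium-sensing receptor, and Enox1.

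**Figure D2:**
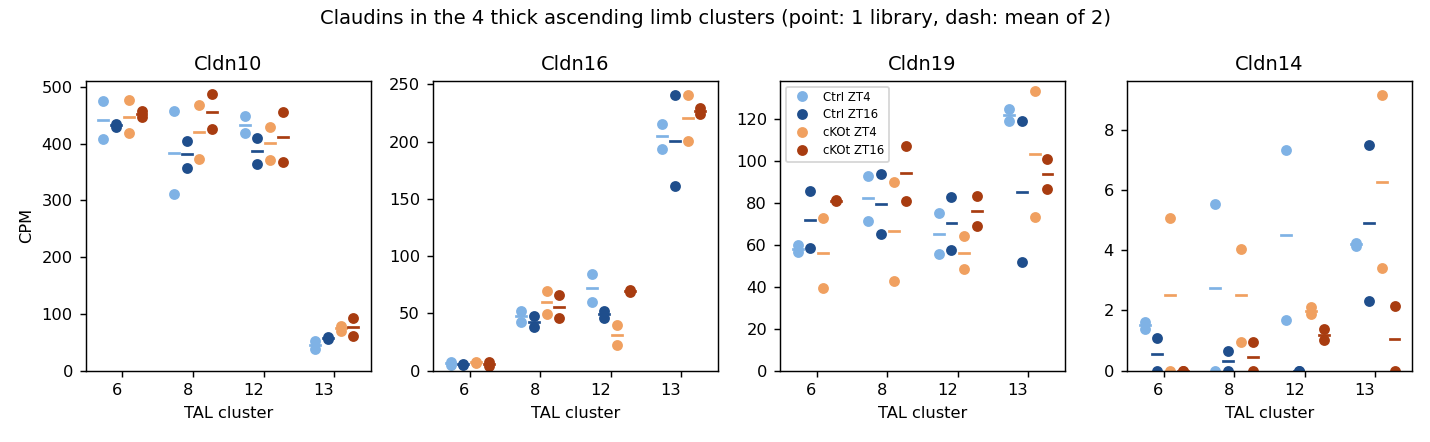
CPM of Cldn10, Cldn16, Cldn19 and Cldn14 (panels, each with its own linear axis from 0) in TAL clusters 6, 8, 12 and 13, with 1 point per library and a dash at the mean of the 2 libraries of a group. Cldn10 is low and Cldn16 high in cluster 13 in all 4 groups, Cldn19 overlaps between clusters, and Cldn14 is at 0 in several libraries.

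The same contrast was seen when the nuclei of all TAL clusters were pooled. Nuclei with both UMIs were not counted within each cluster, so a contrast between nuclei beyond that between clusters was not tested. Among TAL nuclei with a Cldn10 UMI, 11.9% ± 1.85 also had a Cldn16 UMI, against 23.8% ± 3.75 of those without. The difference was −12.0 ± 2.37 percentage points and below 0 in 8 of 8 libraries, although nuclei with a Cldn10 UMI were the deeper ones in each library (3291 against 2648.5 median UMIs in Ctrl ZT4 replicate 1). After thinning each nucleus to 1000 UMIs, the shares were 3.31% and 5.76%, and the difference was −2.45 ± 0.95 points, again below 0 in 8 of 8. Of Myel nuclei, whose median depth was 1787 UMIs against 3540.5 to 4098 in the TAL clusters, 0.46% had a Cldn16 UMI before thinning and 0.321% after. The share with a Cldn19 UMI was 22.1% ± 5.92 with Cldn10 and 22.3% ± 6.5 without it. Both UMIs, Cldn10 and Cldn16, were found in 675 nuclei.

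Cldn14 (chr16:93715915-93809715, − strand), which blocks cation passage through claudin-16 and claudin-19 when calcium is high, was the rarest member. It had 172 UMIs in all libraries, 64 of them in TAL, where its level was 2.00 ± 1.29 CPM. In TAL cluster 13 it was at 4.11 ± 2.96 CPM (28 UMIs), in cluster 41 at 4.35 ± 5.74 (6 UMIs) and in cluster 16 at 3.27 ± 4.71 (19 UMIs). These levels overlap and rest on few molecules, so no order among them can be read. Myel and TC/NK nuclei had no Cldn14 UMI.

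In the distal nephron and collecting duct, Cldn8, Cldn7 and Cldn4 were the members above background, and medullary collecting duct principal nuclei (MCD) held the most Cldn8. Cldn8 (chr16:88357716-88360071, − strand, 1 exon), a chloride-conducting or cation-sealing claudin of the aldosterone-sensitive nephron, was at 113 ± 35.6 CPM in MCD, from 58.6 to 159. It was at 92.9 ± 31.3 CPM in cluster 27, 92.6 ± 24.2 in cluster 39, 70.4 ± 21.8 in the urothelium (UT) and 61.9 ± 21.7 in cluster 41, all overlapping MCD. Alpha-intercalated nuclei (aIC, acid-secreting) were at 51.7 ± 11.4 CPM, cortical collecting duct principal nuclei (CCD) at 38.4 ± 16.6 and connecting tubule nuclei (CNT) at 36.9 ± 18.9. The background in Myel was 13.8 ± 5.73 CPM, and some CCD and CNT libraries (13.5 and 16.3 at the lowest) reached down to it. Cldn7 (chr11:69852648-69858711, + strand), found along lateral membranes as well as in tight junctions, was at 85.2 ± 36.1 CPM in UT, 51.8 ± 9.41 in MCD, 44.8 ± 13.6 in beta-intercalated nuclei (bIC, base-secreting), 41 ± 4.64 in aIC and 24.1 ± 4.68 in TAL. Its Myel background was 5.54 ± 3.43 CPM, below every library of these 5 segments. Cldn4, which pairs with claudin-8 in collecting duct cells, was at 86.0 ± 47.0 CPM in UT and 76.0 ± 17.9 in cluster 27, and at 28.4 ± 9.50 in MCD, against 2.82 ± 3.11 in Myel. Cldn4 and Cldn8 UMIs fell together in 103 of the 292 MCD nuclei with a Cldn4 UMI, and in 3 of 91 after thinning. As a mean over libraries, 36.9% of nuclei with Cldn4 had a Cldn8 UMI, against 25.2% of those without. After thinning the shares were 3.74% and 8.44%, on too few nuclei to read an association. In MCD, Cldn3 was at 4.08 ± 2.42 CPM, near its Myel level of 1.29 ± 1.45.

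In the vessels, Cldn5 was highest in lymphatic nuclei and in nuclei named arterial. It was at 317 ± 180 CPM in lymphatic nuclei (Endo-lymph, 123 nuclei), from 93.5 to 544, and at 123 ± 64.3 in arterial nuclei (Endo-art, 955 nuclei), from 56.4 to 262. The marker list of Endo-art also held Slc14a1, a gene of the descending vasa recta, so this class is not arterial alone. Capillary nuclei (Endo-cap), the largest endothelial class with 11439 nuclei, were at 8.30 ± 5.12 CPM. Their libraries were not compared with those of Myel, and the part of free RNA in this low level was not tested. Every Endo-art library lay above every Endo-cap library (3.09 to 16.6), while Endo-art overlapped both Podo and Endo-lymph. Of the 1035 Cldn5 UMIs, 26.1% were in Endo-art, 25.9% in Podo, 17.7% in Endo-cap and 11% in Endo-lymph.

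Outside the proximal classes, cluster 16 and TAL, the mean of Cldn10 lay between 30.3 and 192 CPM in every segment, the highest in TC/NK (192 ± 103) and with Myel at 77.5 ± 17.5. Distal convoluted tubule nuclei (DCT1 at 38.4 CPM, DCT2 at 30.3 CPM) were the lowest of all. The part of free RNA in the level of Cldn10 in these segments was not tested.

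By Pearson's r of log2(CPM + 1) over 23 named segments (mean of the 4 Ctrl libraries), among 13267 genes, the genes most like Cldn10 were Nr1h4 (0.95), Stxbp5l (0.94) and Tinag (0.90). Those most like Cldn7 were Grhl2 (0.93), an epithelial transcription factor, Gstt3 (0.93) and Epcam (0.92), an epithelial adhesion protein. Cldn2 was most like Syt14 (0.92), Cldn8 like Rgs11 (0.90), Cldn4 like Atp10b (0.86) and Cldn5 like Rtl8b (0.83) and Podxl (0.83), the podocyte and endothelial podocalyxin. The highest r was 0.81 for Cldn1 (Cacna1g), 0.79 for Cldn14 (Rph3a) and 0.74 for Cldn3 (Klhdc8a). Clusters 16, 27, 39 and 41 were not among the 23 segments. Cldn10 had its highest mean in cluster 16, and Cldn3, Cldn4 and Cldn14 had theirs in cluster 41. The segments share libraries, so these values are descriptions.

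Whether time of day or loss of BMAL1 in the tubule changed the claudins was tested with edgeR's quasi-likelihood test on UMI counts summed per library, in 1 model of the 4 groups, with Benjamini-Hochberg adjustment over all genes and a limit of 0.05. Summed over all nuclei, 0 of the 9 claudins passed in any contrast. In all genes the share called was 0.142% for Ctrl ZT16 against ZT4, 0.446% for cKOt against Ctrl at ZT4, 0.174% for cKOt against Ctrl at ZT16, 0.0% for cKOt ZT16 against ZT4 and 0.0183% for the difference of the time effect between genotypes, the interaction. At an unadjusted p under 0.05 the members numbered 4, 1, 2, 0 and 0 of 9 in that order, where 9.95%, 8.87%, 6.16%, 8.38% and 4.38% of all genes passed. DESeq2 called 1 member, Cldn10 in cKOt against Ctrl at ZT4. Its share of all genes called was 1.47% for Ctrl ZT16 against ZT4, 2.17% for cKOt against Ctrl at ZT4, 1.07% for cKOt against Ctrl at ZT16, 1.08% for cKOt ZT16 against ZT4 and 0.312% for the interaction. Of the other claudins, 9 or 10 were tested per contrast and 0 were called. The contrasts share libraries, so their values are not independent. In a sum over nuclei, fewer nuclei of a segment and less RNA per nucleus cannot be told apart, and the proximal share of UMIs ranged from 37.2% to 48.5%.

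**Figure D3:**
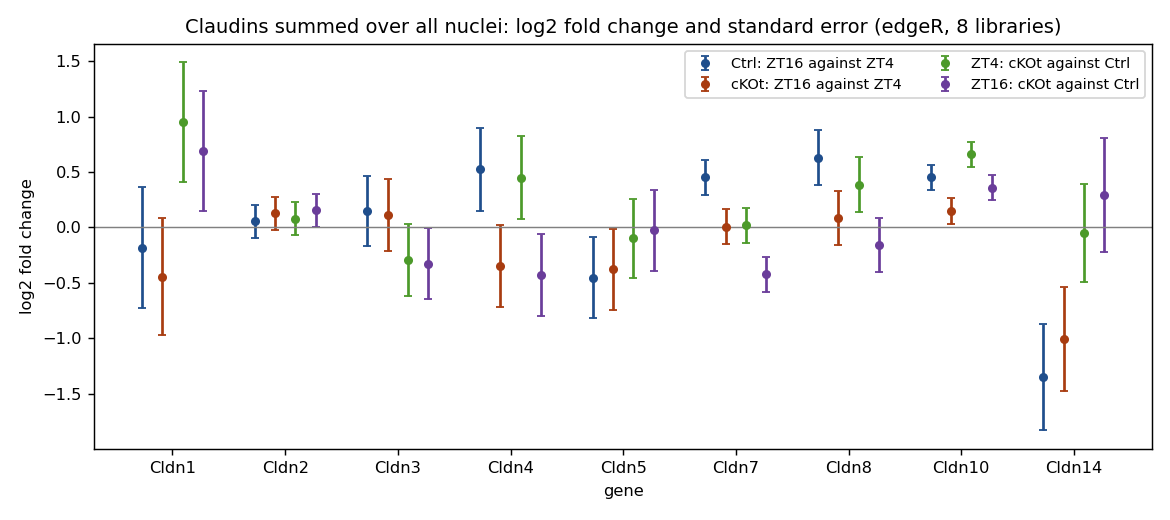
Log2 fold change with its standard error (bars) of each claudin summed over all nuclei, for ZT16 against ZT4 in Ctrl and in cKOt and for cKOt against Ctrl at ZT4 and at ZT16, with the line at 0 for no difference. Cldn10 sits above 0 in all 4 contrasts and Cldn14 is at −1.35 in Ctrl and −1.01 in cKOt for ZT16 against ZT4, and no value passed the adjusted limit.

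Cldn10 came nearest the limit. Its level over all nuclei was 320 and 342 CPM at Ctrl ZT4, 454 and 454 at Ctrl ZT16, 519 and 505 at cKOt ZT4 and 585 and 542 at cKOt ZT16. Ctrl ZT4 was thus the lowest group and did not overlap any other. The share of all genes with such an order over all nuclei was not counted. The log2 fold change of cKOt against Ctrl at ZT4 was 0.66 (SE 0.11, edgeR adjusted p = 0.060), and DESeq2 gave 0.67 with an adjusted p of 2.8e-04. Without 1 library at a time the edgeR adjusted p ran from 0.052 to 0.28, and with no filter on low counts it was 0.033. At ZT16 the genotype difference was 0.36 (SE 0.11, edgeR adjusted p = 0.56), the time difference in Ctrl was 0.45 (SE 0.11, edgeR adjusted p = 0.24) and in cKOt 0.15 (SE 0.11, edgeR adjusted p = 0.82). The interaction was −0.30 (SE 0.16, edgeR adjusted p = 1.00), so a smaller time effect in cKOt was not established.

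By segment, the values of Cldn10 are given for the convoluted and then the straight part of the proximal tubule, without a test between them. In PCT it was at 471 and 615 CPM at Ctrl ZT4, 949 and 1039 at Ctrl ZT16, 753 and 838 at cKOt ZT4 and 1093 and 1083 at cKOt ZT16. Both ZT16 groups lay above both ZT4 groups, with Ctrl ZT4 the lowest. Of all gene and segment pairs, 20.3% in Ctrl and 17.4% in cKOt had both ZT16 libraries above both ZT4 libraries. The time difference in Ctrl was 0.85 on the log2 scale (SE 0.19, edgeR adjusted p = 0.097, DESeq2 adjusted p = 0.0046), and in cKOt 0.47 (SE 0.19, edgeR adjusted p = 0.57). The genotype difference at ZT4 was 0.55 (SE 0.19, edgeR adjusted p = 0.38). The PCT nuclei of the groups lay mostly in different clusters. Those of Ctrl ZT4 were in cluster 7 (1664 and 1346 nuclei), those of Ctrl ZT16 in cluster 19 (1413) for replicate 1 and cluster 3 (764) for replicate 2, those of cKOt ZT4 replicate 2 in cluster 25 (1303), and those of the other cKOt libraries in clusters 3 and 11. In PCT, group and cluster cannot be told apart for Ctrl ZT4. The same holds for the libraries Ctrl ZT16 replicate 1 and cKOt ZT4 replicate 2. Cluster 3 was shared by Ctrl ZT16 replicate 2, cKOt ZT4 replicate 1 (973 nuclei) and both cKOt ZT16 libraries (874 and 918), and levels within it were not compared. In PST the 4 Ctrl libraries were between 556 and 586 CPM at both times, and the 4 cKOt libraries between 667 and 828. The genotype differences there were 0.37 at ZT4 (SE 0.20, edgeR adjusted p = 0.73) and 0.49 at ZT16 (SE 0.20, edgeR adjusted p = 0.47), and neither passed. Of all gene and segment pairs, 19.1% at ZT4 and 17.1% at ZT16 also had both cKOt libraries above both Ctrl libraries. Without 1 library at a time the difference at ZT4 lay between 0.19, without cKOt ZT4 replicate 1, and 0.52. The PST nuclei of the genotypes lay in different clusters. Those of cKOt were mostly in cluster 24 (454, 358 and 503 nuclei) and, for cKOt ZT4 replicate 2, cluster 54 (395), and those of Ctrl in cluster 38 (411 and 461) or cluster 40 (353 and 400). In PST, genotype and cluster cannot be told apart. The largest proximal cluster differed between libraries: it was cluster 7 in both Ctrl ZT4 libraries, cluster 19 in Ctrl ZT16 replicate 1, cluster 20 in Ctrl ZT16 replicate 2, cluster 25 in cKOt ZT4 replicate 2 and cluster 3 in the other cKOt libraries. Cluster 20, named PCT/PST, held Lpl of the glomerular endothelium list and no proximal marker among its 10 leading genes. With all proximal nuclei pooled except cluster 20, a choice made after seeing these clusters, which leaves out 1414 proximal nuclei of Ctrl ZT16 replicate 2 and keeps 1313, Cldn10 was at 549 and 599 CPM at Ctrl ZT4, 794 and 807 at Ctrl ZT16, 888 and 847 at cKOt ZT4 and 943 and 1006 at cKOt ZT16. There the genotype difference at ZT4 was 0.59 (SE 0.17, edgeR adjusted p = 0.28) and the time difference in Ctrl 0.44 (SE 0.17, edgeR adjusted p = 0.46). In PCT/PST with cluster 20 kept, Cldn10 was at 619 and 603 CPM at Ctrl ZT4, 739 and 947 at Ctrl ZT16, 1020 and 921 at cKOt ZT4 and 900 and 1004 at cKOt ZT16, with no test.

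In TAL, Cldn10 was at 284 and 380 CPM at Ctrl ZT4, 353 and 321 at Ctrl ZT16, 322 and 381 at cKOt ZT4 and 392 and 335 at cKOt ZT16. All 4 groups overlapped, and the log2 differences lay between 0.03 and 0.10 (SE 0.15 in each). In cluster 16 the groups ran from 789 to 1385 CPM, and no contrast passed, the largest being 0.39 for cKOt ZT16 against ZT4 (SE 0.18, edgeR adjusted p = 0.99).

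**Figure D4:**
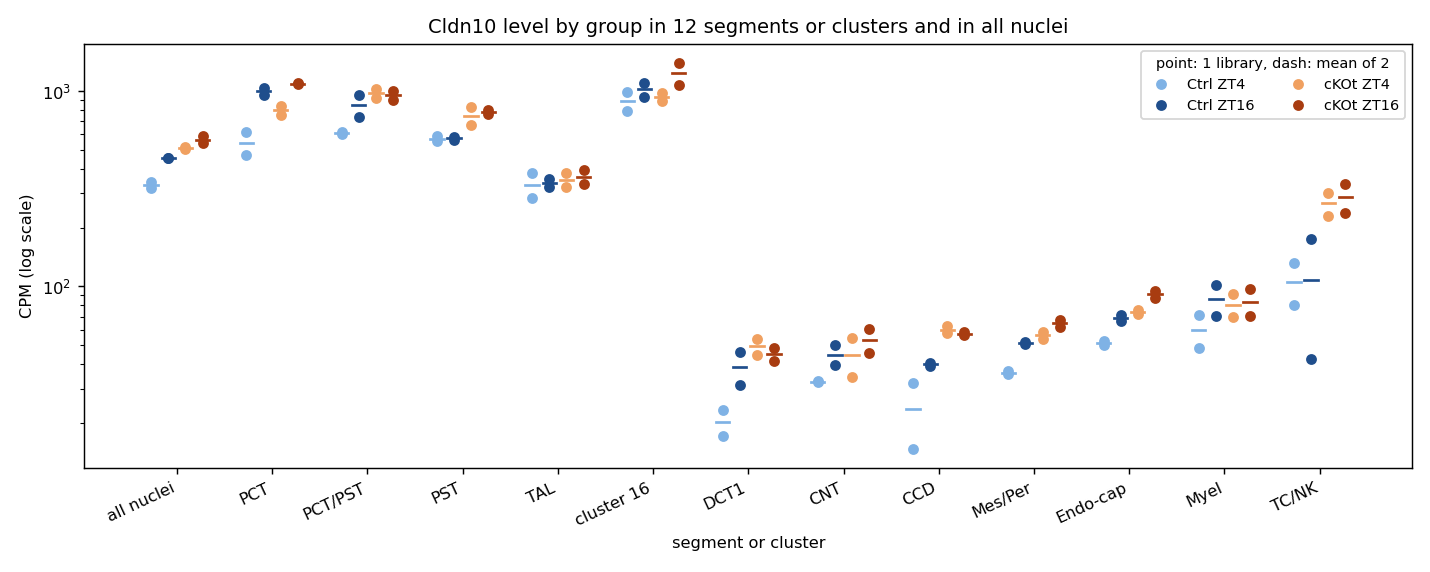
Cldn10 CPM on a log axis in all nuclei and in 12 segments or clusters, with 1 point per library coloured by group and a dash at the mean of 2. Ctrl ZT4 is the lowest group in all nuclei, PCT, DCT1 and Mes/Per, the last at 35.6 and 36.8 CPM, and the groups overlap in TAL and Myel.

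Over 25 segments or clusters, between 95 and 101 of the 225 member and segment pairs had enough counts to be tested in each contrast, and 1 pair was called. In number of segments, Cldn10 could be tested in 24, Cldn2 and Cldn7 in 17, Cldn8 in 15, Cldn4 in 14, Cldn3 in 5, Cldn1 and Cldn5 in 4 and Cldn14 in 1. Over all genes in these segments the share called was 0.334% for Ctrl ZT16 against ZT4, 0.291% for cKOt against Ctrl at ZT4, 0.155% for cKOt against Ctrl at ZT16, 0.106% for cKOt ZT16 against ZT4 and 0.0251% for the interaction. At an unadjusted p under 0.05 there were 7, 13, 7, 4 and 2 pairs. These were 7.37%, 13.7%, 7.14%, 4.12% and 1.98% of the pairs tested, against 7.63%, 6.28%, 5.47%, 6.67% and 4.37% over all genes in these segments.

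The called pair was Cldn10 in DCT1, the early distal convoluted tubule. It was at 23.5 and 17.2 CPM at Ctrl ZT4, 46.2 and 31.5 at Ctrl ZT16, 54 and 44.8 at cKOt ZT4 and 48.4 and 41.5 at cKOt ZT16. It rose in cKOt against Ctrl at ZT4 by 1.29 on the log2 scale (SE 0.29, edgeR adjusted p = 0.042), where 0.397% of all genes in DCT1 were called. The call was lost with DESeq2 (adjusted p = 0.27), with a minimum of 20 counts (edgeR adjusted p = 0.062) and without any of 6 of the 8 libraries (edgeR adjusted p up to 0.55). Without 1 library at a time the log2 difference lay between 1.09 and 1.49. All 15 of 15 proximal marker genes had UMIs in DCT1, and their summed level was 769 and 805 CPM at Ctrl ZT4 and 795 and 818 at cKOt ZT4. Per 100 UMIs of those markers, Cldn10 had 3.05 and 2.14 in DCT1 at Ctrl ZT4 and 6.79 and 5.48 at cKOt ZT4, and in PCT 4.14 and 4.79 against 7.50 and 7.32. The mean of Cldn10 in DCT1 (38.4 CPM) was below that in Myel (77.5 CPM), and the part of proximal RNA in this call cannot be told apart from DCT1's own.

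Cldn10 was also counted over all 24 segments where it could be tested, those described above included. In cKOt against Ctrl at ZT4 it was above 0 in 22 of 24 segments, with both cKOt libraries above both Ctrl libraries in 15 of 24, against 19.1% of all gene and segment pairs. For Ctrl ZT16 against ZT4 the counts were 18 of 23 and 10 of 23, against 20.3%, and for cKOt against Ctrl at ZT16 they were 22 of 24 and 11 of 24, against 17.1%. For cKOt ZT16 against ZT4 they were 16 of 24 and 7 of 24, against 17.4%. Of all gene and segment pairs, between 49.4% and 50.5% were above 0 in these contrasts. The segments come from the same 8 libraries and are not independent, so these counts are descriptions of 1 gene. The shares over all pairs are not matched to the level of Cldn10. In cKOt against Ctrl at ZT4, Cldn2 was above 0 in 10 of 17 segments, Cldn4 in 8 of 11, Cldn7 in 6 of 16 and Cldn8 in 8 of 15. The part of free proximal RNA in these counts was not tested. In mesangial and pericyte nuclei (Mes/Per), which form no tubule, Cldn10 was at 35.6 and 36.8 CPM at Ctrl ZT4, 51.8 and 51.0 at Ctrl ZT16, 58.6 and 53.9 at cKOt ZT4 and 67.3 and 62.1 at cKOt ZT16, the same order as over all nuclei.

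Cldn5 was lower at ZT16 in Ctrl capillary nuclei and showed no called difference in arterial, lymphatic or podocyte nuclei. Capillary cluster 36, whose leading genes held Vcam1 of the PEC list, was set aside after seeing the clusters. In the remaining 10516 nuclei, which are not among the 25 segments above, Cldn5 was at 16.7 and 15.1 CPM at Ctrl ZT4 (31 and 46 UMIs), 5.12 and 3.37 at Ctrl ZT16 (15 and 9 UMIs), 6.78 and 13 at cKOt ZT4 and 4.45 and 5.65 at cKOt ZT16. Cldn5 fell in Ctrl from ZT4 to ZT16 by 1.87 on the log2 scale (SE 0.38, edgeR adjusted p = 0.032), where 0.945% of genes were called. These levels are low and rest on few UMIs, and the part of free RNA in the fall was not tested. In cKOt the difference was −0.98 (SE 0.40, edgeR adjusted p = 0.50), and the interaction of 0.90 (SE 0.57, edgeR adjusted p = 1.00) does not show that the genotypes differ. Without 1 library at a time the cKOt difference lay between −1.30 and −0.40, the latter without cKOt ZT4 replicate 2. Without any of 6 of the 8 libraries the edgeR adjusted p was between 0.055 and 0.25, and without 1 library at a time the log2 difference lay between −2.19 and −1.64, with 0.012 as the lowest edgeR adjusted p. With cluster 36 included, Cldn5 was at 16.6 and 14.2 CPM at Ctrl ZT4 and 4.71 and 3.09 at Ctrl ZT16, with no test. Within clusters 2 and 5 the values were 19.1 and 15.2 against 4.10 and 5.45 CPM, and 29.0 and 37.8 against 17.4 and 1.63, for Ctrl ZT4 against Ctrl ZT16. Within cluster 4 they were 1.72 and 5.54 against 0.99 and 2.09 CPM and overlapped. In Endo-art the time difference in Ctrl was 0.58 (SE 0.42, edgeR adjusted p = 0.88), with Ctrl ZT16 at 262 and 56.4 CPM, and in Podo it was 0.06 (SE 0.35, edgeR adjusted p = 0.99). In Endo-lymph it was −0.79 (SE 0.61, edgeR adjusted p = 0.82), with 254 and 544 CPM at Ctrl ZT4 and 312 and 115 at Ctrl ZT16, which overlapped.

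Cldn8 had its largest genotype difference in CNT. It was at 20.3 and 22.3 CPM at Ctrl ZT4, 31.9 and 16.3 at Ctrl ZT16, 44.0 and 74.7 at cKOt ZT4 and 41.9 and 44.2 at cKOt ZT16. All 4 cKOt libraries lay above all 4 Ctrl libraries. Over the 15 segments tested for Cldn8, both cKOt libraries lay above both Ctrl libraries in 2 at ZT4 and 5 at ZT16. They lay below in 0 and 3. Of all gene and segment pairs, 19.1% and 17.1% lay above in these contrasts and 16.3% and 17.7% below. The log2 difference at ZT4 was 1.44 (SE 0.36, edgeR adjusted p = 0.086) and, without cKOt ZT4 replicate 2, 1.00 (edgeR adjusted p = 0.67). At ZT16 it was 0.78 (SE 0.36, edgeR adjusted p = 0.62). In MCD, Cldn8 was at 58.6 and 81.1 CPM at Ctrl ZT4, 118 and 124 at Ctrl ZT16, 80.0 and 131 at cKOt ZT4 and 159 and 148 at cKOt ZT16. Both ZT16 libraries lay above both ZT4 libraries in each genotype. The differences were 0.78 in Ctrl (SE 0.26, edgeR adjusted p = 0.79) and 0.53 in cKOt (SE 0.25, edgeR adjusted p = 0.87), and neither passed. Over the 15 segments, Cldn8 had this order in 5 for Ctrl and 4 for cKOt, and the reverse in 2 and 1. Of all gene and segment pairs, 20.3% and 17.4% had this order and 18.1% and 19.1% the reverse. Of the 3 MCD clusters, 14, 28 and 49, the last was unevenly spread, with 101 and 1 nuclei at Ctrl ZT4, 1 and 201 at Ctrl ZT16, 74 and 64 at cKOt ZT4 and 0 and 9 at cKOt ZT16. Within cluster 14, Cldn8 was at 63.5 and 119 CPM at Ctrl ZT4, 156 and 153 at Ctrl ZT16, 71.0 and 144 at cKOt ZT4 and 248.7 and 170 at cKOt ZT16. Within cluster 28 it was at 38.1 and 47.7 against 70.0 and 76.0 CPM in Ctrl, and in cKOt at 47.5 and 94.2 against 88.2 and 96.8, which overlapped. Over all nuclei, the time difference of Cldn8 in Ctrl was 0.63 (SE 0.25, edgeR adjusted p = 0.44).

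Cldn14 had few molecules to compare. Over all nuclei, without 1 library at a time, its time difference ran from −1.99 to −0.95 on the log2 scale in Ctrl and from −1.41 to −0.38 in cKOt, the latter without cKOt ZT4 replicate 2. Its TAL UMIs were 8 and 15 at Ctrl ZT4, 11 and 2 at Ctrl ZT16, 10 and 13 at cKOt ZT4 and 1 and 4 at cKOt ZT16. As levels these were 2.98 and 3.09, 1.87 and 0.46, 3.36 and 3.06, and 0.21 and 1.02 CPM. In CPM both ZT16 libraries lay below both ZT4 libraries in each genotype. Of all gene and segment pairs, 18.1% in Ctrl and 19.1% in cKOt had this order. In TAL, Cldn14 had 5 counts in both replicates only in the ZT4 groups and was tested only through them. A fall at ZT16 was thus favoured by the filter on low counts. The log2 difference was −1.27 on the log2 scale in Ctrl (SE 0.60, edgeR adjusted p = 0.41) and −2.39 in cKOt (SE 0.71, edgeR adjusted p = 0.20). Without 1 library at a time it ran from −2.59 to −0.73 in Ctrl and from −3.77 to −1.58 in cKOt.

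**Figure D5:**
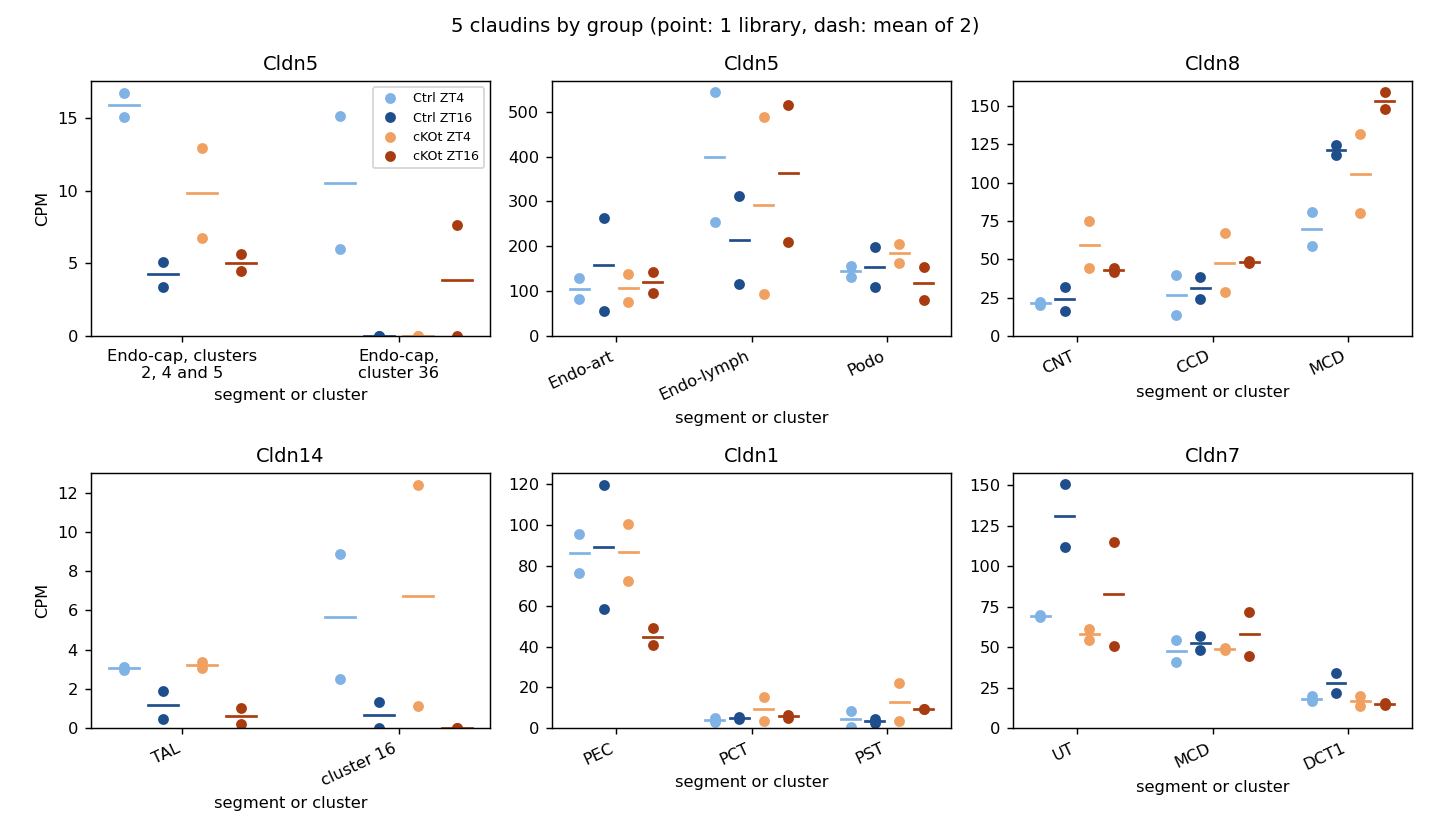
CPM (linear axes from 0) of Cldn5 in capillary and in other vessel and podocyte nuclei, Cldn8 in CNT, CCD and MCD, Cldn14 in TAL and cluster 16, Cldn1 in PEC, PCT and PST, and Cldn7 in UT, MCD and DCT1, with 1 point per library and a dash at the mean of 2. Cldn5 in capillary clusters 2, 4 and 5 is at 16.7 and 15.1 at Ctrl ZT4 and 5.12 and 3.37 at Ctrl ZT16, and Cldn8 in CNT is higher in all 4 cKOt libraries than in all 4 Ctrl libraries.

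Cldn7 over all nuclei was at 11.4 and 12.0 CPM at Ctrl ZT4, 15.6 and 16.5 at Ctrl ZT16, 12.7 and 10.6 at cKOt ZT4 and 12.0 and 11.2 at cKOt ZT16. Ctrl ZT16 stood above all other libraries, an order whose share among all genes over all nuclei was not counted. Neither the time difference in Ctrl (0.45, SE 0.16, edgeR adjusted p = 0.39) nor the genotype difference at ZT16 (−0.42, SE 0.16, edgeR adjusted p = 0.69) passed. Nor did the interaction, so a time effect that differs between genotypes was not established. By segment, both Ctrl ZT16 libraries lay above both Ctrl ZT4 libraries in 6 of 16 for Cldn7 and below in 0. Of all gene and segment pairs, 20.3% lay above and 18.1% below. In UT, Cldn7 was at 68.8 and 69.9 CPM at Ctrl ZT4 and 112 and 151 at Ctrl ZT16 (0.92, SE 0.34, edgeR adjusted p = 0.61), and cKOt ZT16, at 115 and 50.5, overlapped both.

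Cldn2, the proximal pore, passed in no contrast. In PCT it was at 48.9 and 47.7 CPM at Ctrl ZT4, 57.4 and 40.1 at Ctrl ZT16, 52.3 and 55.1 at cKOt ZT4 and 55.5 and 51.3 at cKOt ZT16. Its log2 differences in PCT lay between 0.01 and 0.16 with an SE of 0.17 each, and in PST between −0.12 and −0.01 with an SE of 0.20 to 0.21. In PCT the Ctrl ZT16 libraries spanned the levels of all other groups, while both cKOt libraries lay above both Ctrl libraries at ZT4. At ZT4 Cldn2 had this order in 3 of 17 segments and the reverse in 3, where 19.1% of all gene and segment pairs had this order.

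Cldn1 followed 1 library. In PCT it was at 2.81 and 4.73 CPM at Ctrl ZT4, 5.61 and 4.50 at Ctrl ZT16, 3.43 and 15.2 at cKOt ZT4 and 4.87 and 6.47 at cKOt ZT16. The high value was cKOt ZT4 replicate 2 and its PST value (21.9) was high too. The genotype difference at ZT4 over all nuclei was 0.95 (SE 0.54, edgeR adjusted p = 0.71) and −0.31 without that library, and in PCT 1.30 (SE 0.58, edgeR adjusted p = 0.58) and −0.13 without it. In PEC, Cldn1 was at 95.5 and 76.5 CPM at Ctrl ZT4, 58.6 and 120 at Ctrl ZT16, 72.3 and 101 at cKOt ZT4 and 40.7 and 49.3 at cKOt ZT16. The cKOt ZT16 libraries were the lowest (7 UMIs each), with a log2 difference from Ctrl of −0.93 (SE 0.53, edgeR adjusted p = 1.00).

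Cldn4 and Cldn3 passed in no contrast. In cluster 41, Cldn4 was at 153 and 265 CPM at Ctrl ZT4, 153 and 161 at Ctrl ZT16, 127 and 153 at cKOt ZT4 and 195 and 150 at cKOt ZT16. In cluster 39, Cldn4 had 0 and 6 UMIs at Ctrl ZT4 and 14 and 24 at Ctrl ZT16 (log2 difference 2.11, SE 0.69, edgeR adjusted p = 0.26). This pair was tested in the contrast only through Ctrl ZT16, where it was high, so a rise was favoured by the filter. It is the largest of the 13 Cldn4 differences in this contrast, which ran from −0.67 to 2.11. Without 1 library at a time the difference ran from 1.5 to 7.0, the highest where the Ctrl ZT4 library left had 0 UMIs. Cldn3 in cluster 41 ranged from 3.53 to 30.7 CPM on 1 to 10 UMIs per library. Over all nuclei, the log2 differences of Cldn3 lay between −0.33 and 0.15 with an SE of 0.32 or 0.33.

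Of 23 genes for tight junction partners, such as scaffolds and adhesion molecules, 0 were called over all nuclei in any of the 5 contrasts, with 4 at an unadjusted p under 0.05 in Ctrl ZT16 against ZT4 and 0 to 2 in each of the others, where 9.95% of all genes passed in the first and 4.38% to 8.87% in the others. By segment, 441 to 464 pairs were tested per contrast, and the calls were Cgn in 2 contrasts and Magi1 in 1, all in TAL. Cgn, the junction scaffold cingulin, was at 33.5 and 29.9 CPM at Ctrl ZT4, 65.0 and 52.1 at Ctrl ZT16, 55.4 and 54.4 at cKOt ZT4 and 82.3 and 70.9 at cKOt ZT16. It rose in Ctrl from ZT4 to ZT16 by 0.91 (SE 0.16, edgeR adjusted p = 0.0080, where 1.33% of TAL genes were called) and in cKOt against Ctrl at ZT4 by 0.79 (SE 0.16, edgeR adjusted p = 0.037, where 0.605% were called). Magi1, a scaffold of junctions, fell in Ctrl from ZT4 to ZT16 by 0.68 (SE 0.15, edgeR adjusted p = 0.035), from 1500 and 1425 to 804 and 1000 CPM. Of 12 genes for regulators of tubular claudins, 0 were called over all nuclei, with 0 to 2 at an unadjusted p under 0.05 in each contrast, and 4 gene and segment pairs were called, of 240 to 255 pairs tested per contrast. By contrast the calls were 2 in Ctrl ZT16 against ZT4, 1 in cKOt against Ctrl at ZT4 and 1 in cKOt ZT16 against ZT4, where 0.334%, 0.291% and 0.106% of all gene and segment pairs were called. At an unadjusted p under 0.05 the regulator pairs numbered 28 of 246, 23 of 247, 19 of 240, 22 of 245 and 14 of 255 in the order of contrasts used for the claudin pairs, and the partner pairs 26 of 449, 32 of 441, 26 of 450, 25 of 445 and 23 of 464, where 7.63%, 6.28%, 5.47%, 6.67% and 4.37% of all pairs passed. Wnk1, a kinase of salt transport, rose in CNT from ZT4 to ZT16 in Ctrl by 0.73 (SE 0.16, edgeR adjusted p = 0.024, where 0.638% of CNT genes were called) and in cKOt by 0.79 (SE 0.16, edgeR adjusted p = 0.0089, where 0.637% were called). Pth1r, the parathyroid hormone receptor, rose in DCT2 in Ctrl by 0.87 (SE 0.21, edgeR adjusted p = 0.035, where 0.979% were called). Vdr, the vitamin D receptor, rose in PCT in cKOt against Ctrl at ZT4 by 1.11 (SE 0.21, edgeR adjusted p = 0.042, where 0.901% were called). There Vdr was at 218 and 245 CPM at Ctrl ZT4 and 568 and 429 at cKOt ZT4. At ZT16 it was at 254 and 317 CPM in Ctrl and 308 and 259 in cKOt, which overlapped. As for Cldn10, Ctrl ZT4 and cluster cannot be told apart in PCT.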

How the data were processed

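Single nuclei from 8 mouse kidneys were profiled with 10x 3′ chemistry. The authors deposited raw UMI counts per gene and nucleus, made with Cell Ranger 7.1.0 and, for base calls, bcl2fastq 2.20, and Seurat 5 is also named in the submitters' processing notes. The labels name GRCm39 and the study's methods an mm10 reference, and the files hold no coordinates. From these counts, nuclei were required to have 500 genes and 800 UMIs or more, and no more than 2% of UMIs from mitochondrial genes. Depth was 36548873 to 54500820 UMIs per library, and it limits the rare claudins to a few UMIs per segment.

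Clustering (scanpy 1.11.5, 2000 variable genes, 50 components, 20 neighbours, Leiden resolution 2.2) left out the claudins. Clusters were named where a marker list had a mean z of at least 0.9 and 3 raised markers and under 50% of the nuclei were called doublets, and the thin ascending limb name also needed a marker that is not reported here. In clusters 16, 20 and 36 the leading genes held a marker of another list and none of their own: cluster 16, alone under its name, is called by its number, while clusters 20 and 36 stay in the levels of their classes and were left out of the tests of pooled proximal and capillary nuclei. The rule was set after the clusters were seen. Called doublets (Scrublet, 5.37% of nuclei) were kept, and 14 unnamed clusters were over 50% doublets. At most 42 barcodes were shared between 2 libraries. Counts of protein-coding genes were summed per segment and library and tested with edgeR 4.0.16 (R 4.3.3) in 1 model of the 4 groups. A gene was tested if each replicate of either compared group held 5 counts or more. The script was tested on simulated data. Alternatives were DESeq2 1.42.0, other filters, scalings, clusterings and left-out libraries. Each library is 1 mouse, and p-values rest on 2 mice per group. Shares of nuclei and counts printed without an SD do not show the spread between mice. Replicates differed by more than counting error, with a chi-square per degree of freedom of 31.1 to 55.8 over all nuclei. Named genes are the 9 members, other claudins set beside them, and the partner and regulator genes that passed the test. Clock genes, leading or marker genes of clusters and up to 3 genes most alike in segment pattern are named too. The members and lists were chosen with earlier results of these data known, and 4 groups of clusters were added after seeing the clusters.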

Additional observations from a re-analysis of the deposited data

How the results depend on the processing

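Of 691 alternatives to 57 results, 655 kept the direction and the side of the threshold or stayed within the spread. This count overstates how stable the results are. Leaving 1 of 8 libraries out of a mean level cannot move it beyond the SD, so those outcomes were fixed in advance. An uncalled difference also counted as kept where it stayed uncalled with fewer libraries. Over all nuclei, the count of claudins called in cKOt against Ctrl at ZT4 went from 0 to 1 with DESeq2 and to 1 with no filter on low counts. The count of claudin and segment pairs called in that contrast, 1, became 0 with DESeq2, 0 with at least 20 counts, 3 with no filter and 0 to 1 without 1 library at a time. In Ctrl ZT16 against ZT4 the pairs went from 0 to 1 with DESeq2 and to 1 with no filter. Without cKOt ZT4 replicate 2, the log2 difference of Cldn1 in cKOt against Ctrl at ZT4 turned to −0.31 over all nuclei, −0.13 in PCT and −0.57 in PST, where leaving out 1 library at a time gave up to 1.60, 1.96 and 4.52. The rank of cluster 41 for Cldn3 went from 1 to 2 by share of nuclei after thinning, and the Cldn16 difference in TAL from −12.0 to −2.45 points. Beyond the construction of these alternatives, the cause was not tested. The labels do not say that replicate numbers pair the mice. The correlation of same-numbered deviations was 0.342 between the genotypes at each time and −0.223 to 0.175 between times, and a block within a time point was not run. With the replicate number as a block, 0 claudins were called over all nuclei in each contrast, and 1 pair in cKOt against Ctrl at ZT4. Of the members, Cldn14, Cldn3 and Cldn5 had the fewest UMIs, 172, 580 and 1035 in all libraries. Cldn14, Cldn1 and Cldn5 could be tested in the fewest segments, 1, 4 and 4.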
